A study of Mus musculus with 30 samples.

Results

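Microglia of 3 month-old male mice that had lost a single copy of *Bin1* (Het) were compared with microglia of male mice without Cre (WT). The 6 male Het and 5 male WT libraries are 11 of the 30 listed libraries, and they were taken by the genotype, sex and mouse number in their labels. Het mice were *Bin1* wt/flox::Cx3Cr1-Cre+. WT mice were given as *Bin1* wt/flox without Cre in the study's figure legend and as wild-type littermates elsewhere, so that WT may also carry a floxed copy. The Cre strain of the study has Cre inserted at *Cx3cr1*, so every Het mouse also lacks a working *Cx3cr1* copy, and Cre acts in all cells that use this gene. Cre, the *Cx3cr1* insertion and the loss of the *Bin1* copy came together in each Het mouse and cannot be told apart. The microglia were sorted by flow cytometry as CD11b+ CD45med cells from the brain, and the deposited values are FPKM, fragment counts corrected for transcript length and for the number of fragments mapped.

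BIN1 is a BAR domain protein that binds and bends membranes and acts in endocytosis and vesicle traffic, and its gene is a risk locus for late-onset Alzheimer disease. Microglia are the resident macrophages of the brain. In health they express genes such as *P2ry12*, *Tmem119* and *Cx3cr1*, the receptor of the neuronal chemokine fractalkine. When they take up debris or meet amyloid they raise another set, the disease-associated genes, among them *Cst7*, *Clec7a* and *Apoe*.

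The relative depth, set to 1 for the median of all libraries, came to 0.979 to 1.355 in WT and 0.723 to 1.06 in Het libraries. The summed FPKM of 10 microglial markers was between 21090 and 23530 in WT. In Het it was 16920, 19250 and 19340 in the libraries labelled Het-M-0100, Het-M-0108 and Het-M-0203, below every WT library, and between 23810 and 25000 in the others. *P2ry12* was at 3509 FPKM or more in all 11 libraries. Het-M-0100 and Het-M-0108 carried early mouse numbers (below 150) and no WT male did, so the number range is in part confounded with genotype. The libraries labelled Het-M-0100, Het-M-0108 and Het-M-0203 stood apart from the rest in their long noncoding RNA (lncRNA) genes. An index was formed by subtracting the average log2 level over 12592 protein-coding genes from that over 1754 lncRNA genes. This lncRNA index was -2.48, -2.70 and -2.69 in these libraries, between -3.40 and -3.09 in the other 3 Het libraries and between -3.39 and -2.98 in WT. The library labelled Het-M-0199 stood apart in *Bin1*, and calls that were lost without it are named. Each label carries 1 mouse number, but whether a library was made from 1 mouse is not given in the sources used here, and p-values measure the spread between libraries.

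*Bin1* (ENSMUSG00000024381, chr18:32377230-32435737, GRCm38) was at 263, 256, 252, 230 and 290 FPKM in WT. In Het it ranged from 51.8 to 157 FPKM with a median of 125. The groups did not overlap, and the library labelled Het-M-0199, with 51.8 FPKM, lay at the level of male Homo mice, in which both copies are floxed (49.7 ± 6.82 FPKM, SD, n = 5). *Bin1* fell from 258.2 ± 21.4 (SD, n = 5) to 119.7 ± 36.3 FPKM (SD, n = 6), with a log2 fold change of -1.26 (standard error, SE, 0.25) and a limma adjusted p of 0.0211. The two-sided exact permutation test on FPKM gave p = 0.00433, the smallest p that 6 against 5 libraries can give, and an adjusted p of 0.0120 over the 83 genes so tested. Without the library labelled Het-M-0199 the log2 fold change was -1.05 (adjusted p = 0.0436 by limma), and the mean of the other 5 Het libraries was 133 ± 16.3 FPKM (SD, n = 5). When each of the 11 libraries was omitted in turn, the call was lost 5 times, with an adjusted p of up to 0.0670.

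*Cx3cr1* was at 1843, 2275, 2344, 1926 and 1829 FPKM in WT and between 610 and 1209 FPKM in Het, with a median of 960. Every Het library lay below every WT library, and the lowest were those labelled Het-M-0100 and Het-M-0203 with 748 FPKM or less. The mean of 2043 ± 247 in WT (SD, n = 5) compared with 933 ± 237 FPKM in Het (SD, n = 6), and the exact permutation test gave p = 0.00433 (adjusted p = 0.0120). In the fit of all 6 groups, whose shared spread includes a female Het library with 13.9 FPKM, the log2 fold change was -1.24 (SE 0.66, adjusted p = 0.386 by limma). Without that female library, an alternative chosen after the data were seen, it was -1.24 with an adjusted p of 0.000278.

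**Figure D1:**
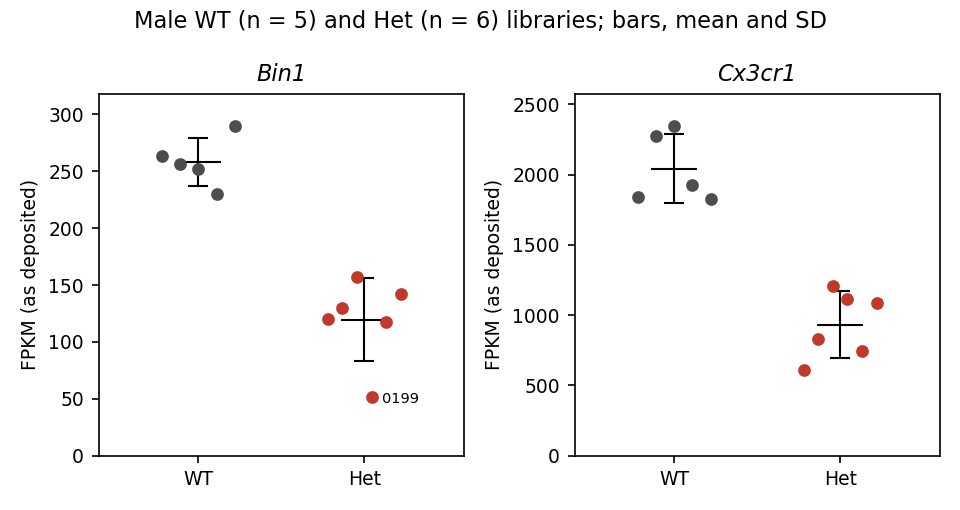
FPKM of *Bin1* and *Cx3cr1* in each male WT (grey) and Het (red) library, with the mean and SD of each group. All Het libraries lie below all WT libraries in both genes, and the library labelled Het-M-0199 has the lowest *Bin1*, 51.8 FPKM.

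Differentially expressed genes (DEGs) had an adjusted p below 0.05 by limma with Benjamini-Hochberg adjustment and a fold change above 1.5. There were 26 of 16897 genes tested (0.154%), of which 21 were raised in Het (0.124%) and 5 repressed (0.0296%). At an unadjusted p below 0.05, 1262 genes were higher in Het (7.47%) and 1129 lower (6.68%), and without scaling between libraries 1642 were higher and 757 lower. Leaving out 1 male library at a time gave 12 (without WT-M-0178) to 57 DEGs (without WT-M-0258), with 0 to 28 repressed. Without Het-M-0199 there were 25, 20 of them among the 26, and the 6 calls lost were *Ly9*, *Rxrg*, *Gm12932*, *Gm13710*, *Prlr* and *Zfp36l1*, with adjusted p between 0.0548 and 0.0788 by limma. A further 3 genes, named after their values were seen, passed the adjusted p with a smaller change: *Scarf2*, *Cd180* and *Fance*, at log2 fold changes of 0.55, 0.43 and 0.44. Over all genes, the log2 fold change had a median of 0.01. Fold changes are on the scale of log2(FPKM + 0.1), which understates the change of low genes.

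Most of the raised genes rose in every Het library. In 15 of the 21 raised DEGs the lowest Het library lay above the highest WT library. Over all genes 0.515% were so separated upward. The DEGs were picked by their difference between the same libraries, so this separation is no independent support for them. The raised genes include a protease inhibitor, several receptors of the cell surface, sulfotransferases, a collagen cross-linking enzyme and nuclear proteins. Of the 26 DEGs, 10 were called without each of the 11 libraries in turn, all of them raised: *Cst7*, *Sp100*, *Pdcd1*, *Hcar2*, *Tmem154*, *Chst1*, *Cacna1s*, *Gm4951*, *Lox* and *Gpr153*. *Cst7*, *Sp100*, *Pdcd1* and *Hcar2* were called under every other setting as well, and were the 4 DEGs of a fit of the 11 male libraries alone. From the same series, the study had singled out 9 of the raised genes as higher on loss of *Bin1* in both sexes (*Cst7*, *Chst1*, *Chst2*, *Pdcd1*, *Lox*, *Rxrg*, *Gpr153*, *Sp100*, *Hcar2*). All 9 were DEGs here, which is not independent evidence of their direction.

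*Cst7* (ENSMUSG00000068129, chr2:150570415-150578944) encodes cystatin F, an inhibitor of lysosomal cathepsins that microglia raise near amyloid plaques. It was at 10.4, 10.1, 10.1, 7.14 and 13.1 FPKM in WT, and in Het between 31.4 and 61.2 with a median of 40.7. The lowest Het library thus had more than the highest WT library by a wide margin. The mean rose from 10.2 ± 2.13 (SD, n = 5) to 44.1 ± 11.3 FPKM (SD, n = 6), 4.05-fold (log2 fold change 2.02, SE 0.20, adjusted p = 1.01e-06 by limma). *Cst7* belongs to the disease-associated genes. Of 30 tested genes of that list, it was the single member that passed the adjusted threshold. At an unadjusted p below 0.05, 5 of the 30 were higher in Het and 1 lower, against 7.47% and 6.68% of all genes. The median log2 fold change of the list was 0.05. *Clec7a*, which encodes the beta-glucan receptor Dectin-1, was at 13.4, 16.4, 14.6, 26.7 and 15.5 FPKM in WT and between 17.2 and 55.6 in Het, and the groups overlapped (log2 fold change 0.88, adjusted p = 0.153 by limma). *Cd52*, a small surface glycoprotein of leukocytes, was between 136 and 285 FPKM in Het and between 85.6 and 156 in WT (log2 fold change 0.66, adjusted p = 0.126).

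*Apoe*, the lipid carrier that is also the main risk gene of late-onset Alzheimer disease, had lower values in Het. It was at 470, 555, 471, 518 and 572 FPKM in WT and between 252 and 426 in Het, with a median of 361. No library overlapped between the groups. The exact permutation test gave p = 0.00433, whereas limma gave a log2 fold change of -0.67 with an adjusted p of 0.140, so *Apoe* was not a DEG.

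*Lyz2* (chr10:117277331-117282321), the lysozyme of macrophages, was at 305, 304, 259, 525 and 324 FPKM in WT and between 429 and 976 in Het, with a median of 655. The library labelled WT-M-0202 lay among the Het libraries, and the others lay below all of them. The log2 fold change was 0.85 (SE 0.18, adjusted p = 0.0379 by limma). It was lost in 8 of the 11 fits without a library. *Lyz2* has a near-identical neighbour, *Lyz1*, so that the split of reads between them is uncertain.

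Receptors of the cell surface made up the next group. *Pdcd1* (ENSMUSG00000026285, chr1:94038305-94052553) encodes PD-1, the inhibitory checkpoint receptor first described in T cells. It was at 3.47, 2.31, 1.93, 4.40 and 3.72 FPKM in WT and between 9.49 and 15.0 in Het, with a median of 12.1, without overlap. The rise was 3.69-fold (log2 fold change 1.88, SE 0.23, adjusted p = 2.68e-05 by limma). The T and NK cell markers, 9 genes in all, summed to at most 0.531 FPKM in Het and at most 0.128 in WT.

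*Hcar2* (ENSMUSG00000045502, chr5:123863570-123865499) encodes the receptor of niacin and of the ketone body beta-hydroxybutyrate. Its WT values were 5.28, 2.19, 2.20, 4.27 and 3.57 FPKM, and the Het values ran from 11.1 to 18.4 with a median of 15.0. All 6 Het libraries exceeded the WT range, and the rise was 4.10-fold (log2 fold change 2.04, SE 0.27, adjusted p = 0.000101 by limma). *Gpr153*, an orphan receptor, was low in both groups, at 0.110, 0.125, 0.139, 0.182 and 0.237 FPKM in WT and between 0.480 and 1.12 in Het. It too did not overlap (log2 fold change 1.63, adjusted p = 0.00607 by limma).

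*Tmem154*, a transmembrane protein of little known function, was at 2.14, 1.87, 1.44, 1.86 and 1.21 FPKM in WT and between 3.42 and 5.11 in Het. The groups did not overlap, and it rose 2.18-fold (SE 0.16 on the log2 scale, adjusted p = 0.000269 by limma). *Ly9*, a receptor of the SLAM family of leukocytes, was at 13.6, 10.8, 11.99, 10.7 and 12.1 FPKM in WT and between 17.4 and 33.9 in Het, again without overlap. Its rise was 1.94-fold with an adjusted p of 0.0259. It was no DEG without the library labelled Het-M-0199 (adjusted p = 0.0548) and was one among late numbered mice alone (adjusted p = 0.0254).

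Of the nuclear proteins, *Sp100* (ENSMUSG00000026222, chr1:85649988-85709998) is a component of PML nuclear bodies that interferon induces. It was at 11.5, 12.5, 12.2, 16.7 and 10.1 FPKM in WT and between 20.7 and 31.7 in Het, with a median of 26.5. Every Het library was higher than every WT library. The mean rose 1.98-fold (log2 fold change 0.98, SE 0.11, adjusted p = 1.46e-05 by limma). *Rxrg*, a retinoid X receptor that pairs with other nuclear receptors, was at 0.890, 1.55, 0.887, 0.835 and 0.811 FPKM in WT and between 1.34 and 4.33 in Het. Here the library labelled WT-M-0177 overlapped with the Het range, which the library labelled Het-M-0199 topped. The log2 fold change was 1.23 (adjusted p = 0.0405 by limma), and without Het-M-0199 it was 1.07 (adjusted p = 0.0788).

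Enzymes that act on sugars and matrix followed. *Chst1* and *Chst2* encode sulfotransferases that add sulfate to glycans such as keratan sulfate and selectin ligands. *Chst1* (chr2:92599707-92615250) was at 19.0, 15.7, 16.3, 9.90 and 20.3 FPKM in WT and within a narrow range of 31.8 to 38.2 in Het. It rose 2.06-fold (SE 0.16 on the log2 scale, adjusted p = 0.00124 by limma). *Chst2* (chr9:95399292-95406722) was much lower, at 0.774, 0.629, 0.680, 0.504 and 0.608 FPKM in WT and between 1.05 and 1.78 in Het. Neither gene overlapped between the groups, and the rise of *Chst2* was 1.96-fold (adjusted p = 0.0194 by limma). *Lox*, lysyl oxidase, which cross-links collagen and elastin, was at 0.668, 0.600, 0.0999, 0 and 0.225 FPKM in WT and between 1.42 and 2.45 in Het. It rose 5.45-fold on the log2(FPKM + 0.1) scale (log2 fold change 2.45, SE 0.39, adjusted p = 0.00124 by limma), from a WT level close to 0. *Cyp4f18*, a P450 that hydroxylates leukotriene B4, was between 1.11 and 2.98 FPKM in Het and between 0.175 and 0.905 in WT (log2 fold change 1.80, adjusted p = 0.0421).

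*Cacna1s*, the pore subunit of the calcium channel of skeletal muscle, was at 2.26, 1.51, 1.93, 3.16 and 2.81 FPKM in WT and between 3.90 and 8.39 in Het, with a median of 6.10. No library overlapped, and the rise was 2.48-fold (SE 0.21 on the log2 scale, adjusted p = 0.00124 by limma). *Amer2*, a regulator of Wnt signalling, was between 3.04 and 5.29 FPKM in Het and between 1.75 and 2.61 in WT. Its rise of 1.76-fold (adjusted p = 0.0194) was the smallest among the raised DEGs.

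*Gm4951*, a GTPase of the interferon-induced family, was at 1.25, 1.76, 1.49, 3.28 and 1.48 FPKM in WT and between 2.58 and 8.81 in Het. The library labelled WT-M-0202 overlapped with Het, and the log2 fold change was 1.27 (adjusted p = 0.00124 by limma). *H2-Q7*, a class Ib major histocompatibility gene with near-identical neighbours, was between 5.69 and 15.3 FPKM in Het and at 2.14, 3.09, 2.87, 2.49 and 6.46 in WT (log2 fold change 1.25, adjusted p = 0.0158). Of 34 tested type I interferon response genes, *Sp100* alone passed the adjusted threshold, and the median log2 fold change was 0.01. At an unadjusted p below 0.05, 5 were higher and 1 lower, against 7.47% and 6.68% of all genes. *Ctla2b*, a cysteine protease inhibitor with a close paralog, *Ctla2a*, was between 11.9 and 31.9 FPKM in Het and between 5.61 and 11.1 in WT (log2 fold change 1.09, adjusted p = 0.0379).

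The remaining 3 raised DEGs were noncoding: *Gm37168* and *Gm13710*, annotated as lincRNAs, and *Gm12932*, annotated as antisense. The library kit did not keep strand, so reads of overlapping genes on the other strand cannot be told apart. Their log2 fold changes were 1.54, 1.74 and 2.40, and *Gm12932* was at 0 in 2 WT libraries.

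**Figure D2:**
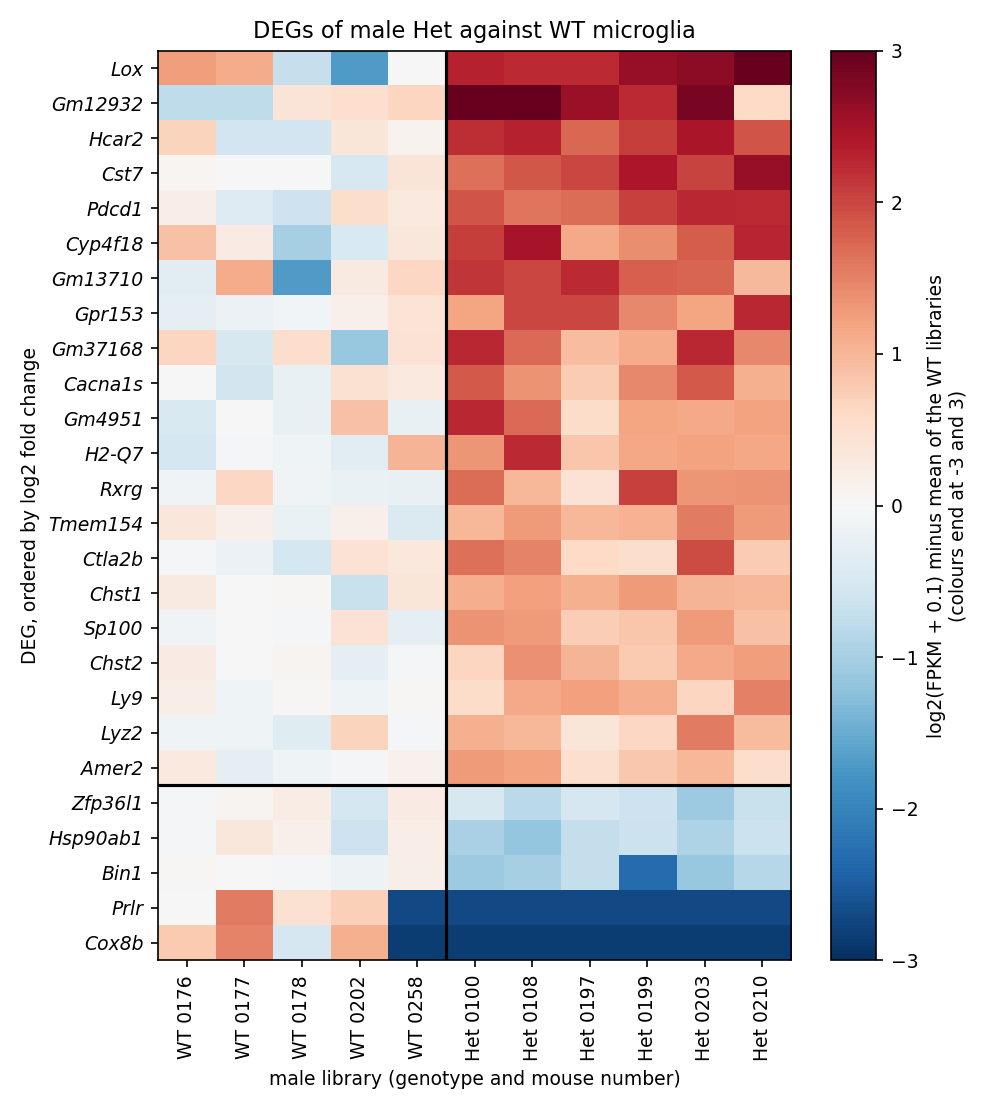
Log2(FPKM + 0.1) of the 26 DEGs in each male library, minus the mean of the 5 WT libraries (red higher, blue lower). The 21 raised genes are red in nearly all Het libraries, and *Prlr* and *Cox8b* are at 0 in all Het libraries and in the library labelled WT-M-0258.

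Besides *Bin1*, 4 genes were repressed: *Hsp90ab1*, *Zfp36l1*, *Prlr* and *Cox8b*. Of the 5 repressed DEGs, 0 were called in all 11 fits without a library, by limma. *Zfp36l1* encodes a protein that binds AU-rich elements and promotes mRNA decay. It was at 49.4, 53.0, 58.9, 35.1 and 59.8 FPKM in WT and between 23.4 and 36.0 in Het, and the library labelled WT-M-0202 overlapped with Het. The log2 fold change was -0.77 (SE 0.17, adjusted p = 0.0489 by limma), and *Zfp36l1* was no DEG in 9 of the 11 fits without a library. Its relative *Zfp36l2* was between 105 and 150 FPKM in Het and between 128 and 181 in WT (log2 fold change -0.43, adjusted p = 0.153).

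*Prlr* and *Cox8b* were listed at 0 in all 6 Het libraries and in the library labelled WT-M-0258. In the other 4 WT libraries *Prlr*, the prolactin receptor, was between 0.547 and 1.83 FPKM, and *Cox8b*, a subunit of cytochrome c oxidase, between 0.411 and 1.94. Both are markers of the choroid plexus epithelium, the secretory cells that make cerebrospinal fluid. All 12 tested markers of these cells had a log2 fold change below 0, with a median of -2.57. At an unadjusted p below 0.05, 11 of them were lower, against 6.68% of all genes. The 15 markers summed to 101, 457, 122.5, 182 and 1.14 FPKM in WT and to 2.96 to 28.1 FPKM in Het. *Ttr*, transthyretin, the most abundant of them, was at 64.4, 253, 69.3 and 121.8 FPKM in 4 WT libraries, at 0.166 in the library labelled WT-M-0258 and between 0.916 and 18.9 in Het. The sums thus overlapped through WT-M-0258 alone. Without that library 57 genes were DEGs, 28 of them repressed, and 8 of the 28 were markers on this list, such as *Folr1*, *Kl*, *Enpp2* and *Clic6*. In sorted bulk RNA, fewer cells of a type and less RNA per cell cannot be told apart, and the part of these cells in other results was not tested.

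Chaperones of the cytosol help newly made and damaged proteins to fold. The HSP90 and HSP70 proteins do so with J-domain partners such as DNAJA1 and DNAJB1 and with co-chaperones such as FKBP4, and the transcription factor HSF1 drives many of their genes through heat shock elements. In Het microglia most of them had lower levels. Of 45 tested genes of the list, 22 were lower in Het at an unadjusted p below 0.05 and 0 higher. Over all genes 6.68% were lower and 7.47% higher at that p. In the list 38 had a log2 fold change below 0, and the median was -0.30. By limma's adjusted p, *Hsp90ab1* was the single gene of the list that passed. In 6 of the 45 every Het library lay below every WT library, against 0.326% of all genes that were so separated downward.

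*Hsp90ab1* (ENSMUSG00000023944, chr17:45567775-45573271), the constitutive HSP90, was at 226, 297, 260, 154 and 270 FPKM in WT and between 105 and 151 in Het, with a median of 134. The groups did not overlap, but the library labelled WT-M-0202 lay close to the Het range. *Hsp90ab1* fell from 241 ± 55.0 (SD, n = 5) to 132 ± 18.8 FPKM (SD, n = 6), a log2 fold change of -0.92 (SE 0.19, adjusted p = 0.0379 by limma). The call was lost in 7 of the 11 fits without a library, with an adjusted p of up to 0.141. Without WT-M-0202 the adjusted p was 0.00622.

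*Hspa8*, the constitutive HSP70, was at 516, 628, 630, 460 and 583 FPKM in WT and between 290 and 411 in Het, with a median of 372. No library overlapped (exact permutation p = 0.00433), and the log2 fold change was -0.70 (SE 0.17) with an adjusted p of 0.0751 by limma. *Dnaja1* was at 69.0, 84.6, 82.6, 52.0 and 61.0 FPKM in WT and between 28.3 and 46.5 in Het, also without overlap (log2 fold change -0.92, adjusted p = 0.0841). *Fkbp4* was at 44.8, 48.7, 48.7, 40.4 and 55.8 FPKM in WT and between 31.3 and 37.2 in Het, without overlap as well (log2 fold change -0.54, adjusted p = 0.0689). *Dnajb1*, at 29.0 FPKM in WT-M-0202 and between 20.96 and 29.6 in Het, overlapped through that WT library (log2 fold change -0.72, adjusted p = 0.0983). Without WT-M-0202, *Hspa8*, *Dnaja1*, *Dnajb1* and *Fkbp4* joined *Hsp90ab1* among 16 repressed DEGs, with adjusted p between 0.0381 and 0.0473 by limma. WT-M-0202 was the lowest WT library in each of these genes, so its omission widens the difference. *Hspa8*, *Dnaja1* and *Dnajb1* were no DEGs in 10 of the 11 fits without a library. Their adjusted p by limma in these fits reached 0.231, 0.253 and 0.311.

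The inducible HSP70 genes *Hspa1a* and *Hspa1b*, near-identical copies, had the largest differences of the list, at log2 fold changes of -3.05 and -3.01 (adjusted p = 0.192 and 0.180), but from low levels. *Hspa1b* was between 0.259 and 10.7 FPKM in WT and between 0.126 and 0.849 in Het, so the groups overlapped. The small heat shock protein gene *Hspb8* was listed at 0 in all Het libraries and between 0.112 and 0.945 FPKM in WT. *Hsp90aa1*, the inducible HSP90, was between 29.9 and 48.7 FPKM in Het and between 33.4 and 69.0 in WT (log2 fold change -0.57, adjusted p = 0.238). The study had named *Hsp90ab1*, *Hspa8*, *Hsp90aa1*, *Dnaja1*, *Dnajb1* and *Chmp4b* as repressed in male mice that lost both *Bin1* copies. That comparison came from the same series, so their direction here is not independent evidence. *Chmp4b*, an ESCRT-III subunit, was between 1.61 and 5.396 FPKM in Het and between 3.71 and 8.18 in WT (log2 fold change -0.63, adjusted p = 0.284).

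**Figure D3:**
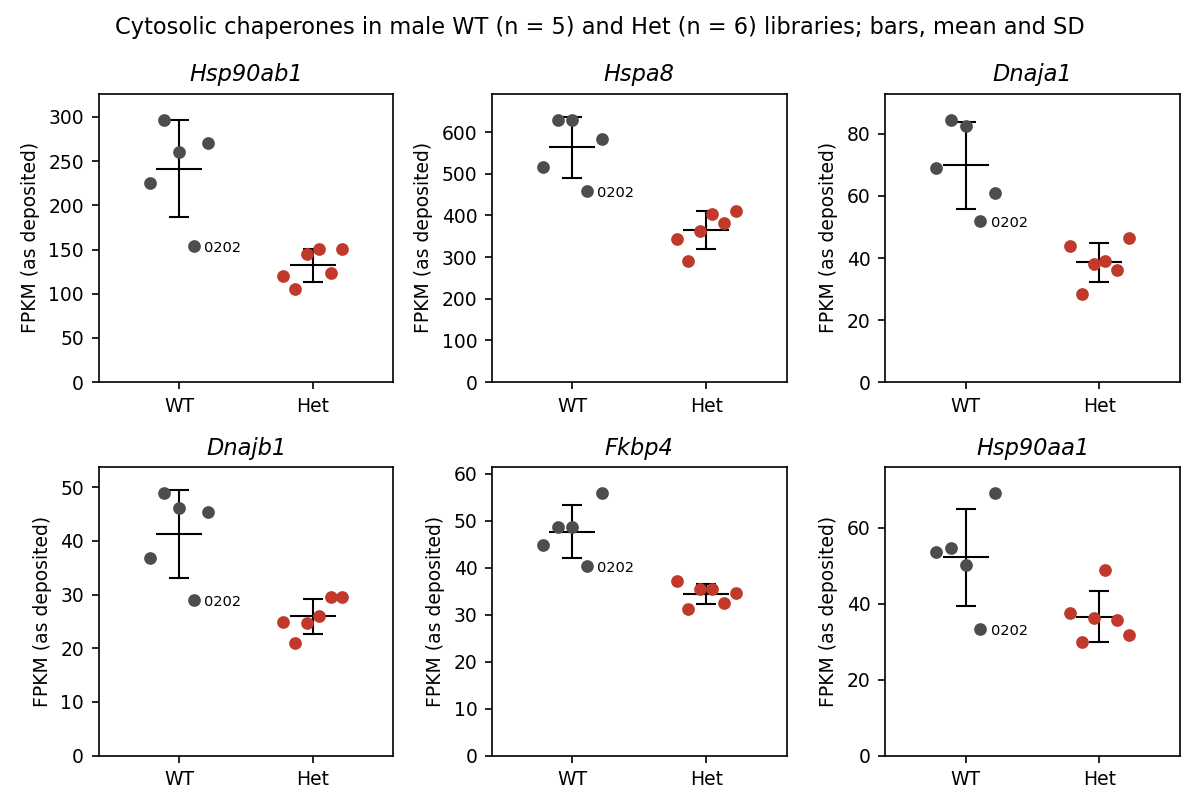
FPKM of 6 cytosolic chaperone genes in each male WT (grey) and Het (red) library, with mean and SD. The library labelled WT-M-0202 is the lowest WT library in all 6 and overlaps with Het in *Dnajb1* and *Hsp90aa1*.

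Pairs of facing units of the heat shock element, GAANNTTC or TTCNNGAA, which are read the same on both strands, were searched in the 250 bases before the start of each gene in RefSeq (GRCm38.p6). Of 36 chaperone list genes with such a window, 13 held either form (36.1%), against 12.6% of the 10661 tested genes with a window. Among the chaperones that were lower at an unadjusted p below 0.05 the count was 7 of 18, and among the others 6 of 18. These are matches of letters and not shown to be sites. *Ptges3* and *Hspb8* separated the groups completely but held no match, and *Hspa8* and *Hsp90ab1*, which also separated them, had no window. Windows of *Fkbp4* and *Dnaja1* are shown because both genes separated the groups completely and hold a match, with the units in capitals.
*Fkbp4*, chr6:128438657-128438906, minus strand: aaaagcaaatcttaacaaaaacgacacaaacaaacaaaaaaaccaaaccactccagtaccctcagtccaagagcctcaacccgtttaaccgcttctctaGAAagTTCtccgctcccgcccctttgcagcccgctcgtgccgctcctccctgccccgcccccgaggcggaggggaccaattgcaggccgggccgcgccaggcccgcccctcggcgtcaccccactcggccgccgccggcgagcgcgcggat
*Dnaja1*, chr4:40722218-40722467, plus strand: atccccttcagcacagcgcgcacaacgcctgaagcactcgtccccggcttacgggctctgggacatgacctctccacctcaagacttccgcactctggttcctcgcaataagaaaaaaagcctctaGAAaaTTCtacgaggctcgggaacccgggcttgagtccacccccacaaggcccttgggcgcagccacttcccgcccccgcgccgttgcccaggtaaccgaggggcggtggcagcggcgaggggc

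The first unit begins 151 bases before the start of *Fkbp4* and 124 bases before the most upstream of 3 *Dnaja1* starts. The windows of the other 2 *Dnaja1* starts held no match.

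Other folding systems followed. Of 14 genes of the CCT chaperonin, which folds actin and tubulin, and its partner prefoldin, 4 were lower and 1 higher at an unadjusted p below 0.05, with a median log2 fold change of -0.12. Of 25 chaperones and stress genes of the endoplasmic reticulum, 7 were lower and 0 higher, with a median of -0.18. No gene of either list passed limma's adjusted p. Over all genes 6.68% were lower and 7.47% higher at the unadjusted threshold. Among late numbered mice alone the endoplasmic reticulum list had a median of -0.05 and 0 members lower at an unadjusted p below 0.05, and the cytosolic chaperones a median of -0.22, with 14 of 45 lower. In that smaller fit 4.02% of all genes were lower and 3.72% higher at this p. With the lncRNA index as a covariate, added after the data were seen, 17 of the 45 were lower, where 793 of all genes tested were, with a median of -0.19 and 0 repressed DEGs among them.

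Of 30 tested homeostatic genes of microglia, 26 had a log2 fold change below 0, with a median of -0.20. At an unadjusted p below 0.05, 6 were lower, against 6.68% of all genes. Late numbered mice alone gave a median of -0.04. *Csf1r*, the receptor that microglia need to survive, was between 2864 and 4265 FPKM in WT (log2 fold change -0.43, adjusted p = 0.344 by limma). In Het it was at 1927, 2488 and 2204 FPKM in the libraries labelled Het-M-0100, Het-M-0108 and Het-M-0203. The other Het libraries were between 2949 and 4063 FPKM.

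Targets of NF-kB, the transcription factor of inflammatory signalling, had more members higher than lower. Of 29 tested, 10 were higher and 3 lower in Het at an unadjusted p below 0.05, against 7.47% and 6.68% of all genes. By limma's adjusted p 0 of the list passed, and its median log2 fold change was 0.12. Among late numbered mice 11 were higher and 1 lower, against 3.72% and 4.02% of all genes. *Il1a*, interleukin 1 alpha, was at 67.2, 63.7, 63.2, 98.7 and 63.8 FPKM in WT and in a narrow range of 97.05 to 112 in Het. Again it was WT-M-0202 that reached the Het range (log2 fold change 0.49, adjusted p = 0.153 by limma). *Tnf* was between 1.34 and 5.11 FPKM in Het and between 0.681 and 1.88 in WT (log2 fold change 1.19, adjusted p = 0.167). The chemokine *Ccl9* was between 87.5 and 201.3 FPKM in Het and at 63.1, 51.6, 49.9 and 72.5 in 4 WT libraries, while WT-M-0202 lay inside the Het range (log2 fold change 0.74, adjusted p = 0.0966). *Nfkbiz*, an atypical inhibitor of NF-kB, was between 3.43 and 9.56 FPKM in Het and between 2.12 and 3.47 in WT, with an overlap of those ranges by a small margin (log2 fold change 0.85, adjusted p = 0.109).

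Immediate early genes, which cells switch on within minutes of a stimulus or of handling, had members in both directions. Of 30 tested, 4 were higher and 6 lower at an unadjusted p below 0.05, against 7.47% and 6.68% of all genes. The list had a median log2 fold change of 0.04. *Egr2* lay just outside the DEG threshold, at 1.17, 0.580, 0.838, 1.29 and 0.495 FPKM in WT and between 1.14 and 2.96 in Het (log2 fold change 1.12, adjusted p = 0.0501 by limma). *Klf2*, a factor that restrains activation of myeloid cells, was at 3.57, 2.54, 3.34, 2.69 and 3.34 FPKM in WT and between 1.23 and 2.18 in Het, without overlap (log2 fold change -0.95, adjusted p = 0.235).

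RXR and its partner LXR control genes of cholesterol export. The list looked at also holds genes of the glucocorticoid response, namely *Nr3c1*, *Fkbp5*, *Tsc22d3* and *Per1*. At an unadjusted p below 0.05, 9 of its 27 tested genes were lower and 3 higher. *Rxrg* was among the higher, and *Tsc22d3* and *Per1* were among the lower. The shares of all genes were 6.68% and 7.47%, and the list had a median log2 fold change of -0.16. *Pltp*, the phospholipid transfer protein, was at 2.07, 5.96, 3.82, 2.84 and 1.98 FPKM in WT and between 0.584 and 1.59 in Het, without overlap (log2 fold change -1.43, adjusted p = 0.0987 by limma). *Tsc22d3*, a glucocorticoid-induced gene, was at 69.4, 84.2, 77.0, 43.1 and 91.4 FPKM in WT and between 27.8 and 46.1 in Het, where WT-M-0202 overlapped (log2 fold change -1.08, adjusted p = 0.0983).

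The routes that BIN1 serves were looked at next. Of 37 tested BAR, clathrin and early endosome genes, 4 were lower and 0 higher at an unadjusted p below 0.05, *Bin1* among them, with a median log2 fold change of -0.12. At that p 6.68% of all genes were lower and 7.47% higher, the shares to set beside every list of this paragraph. *Picalm*, a clathrin adaptor and Alzheimer risk gene, was between 64.3 and 86.5 FPKM in Het and between 72.8 and 111 in WT (log2 fold change -0.32, adjusted p = 0.297). Of 29 ESCRT and extracellular vesicle genes 4 were lower and 0 higher, with a median of -0.12. Of 27 Alzheimer risk genes 7 were lower and 0 higher, with a median of -0.17, and *Bin1* was the single one to pass limma's adjusted p. *Rin3*, a Rab5 exchange factor that binds BIN1, was between 22.4 and 26.8 FPKM in Het and between 24.6 and 30.6 in WT (log2 fold change -0.23, adjusted p = 0.301).

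Of 8 nuclear retained and imprinted lncRNAs, 2 were higher and 1 lower in Het at an unadjusted p below 0.05, with a median log2 fold change of 0.33 (0.01 among late numbered mice). Of all genes tested, 7.47% were higher and 6.68% lower at that p, and 3.72% and 4.02% among late numbered mice. *Malat1*, a nuclear lncRNA, was at 12821, 10259 and 8084 FPKM in the libraries labelled Het-M-0100, Het-M-0108 and Het-M-0203, between 2628 and 4779 in the other 3 Het libraries and between 2933 and 5752 in WT (log2 fold change 0.52, adjusted p = 0.403 by limma). Of 13 snoRNA host genes, 5 were higher and 0 lower at an unadjusted p below 0.05, with a median log2 fold change of 0.46, and 0 were higher among late numbered mice. Of all 1754 lncRNA genes, 232 were higher and 23 lower (median 0.27). Among late numbered mice 82 were higher and 40 lower (median 0.06). Of 13 mitochondrial mRNAs 3 were higher (median 0.21). Relative depth was lowest in Het-M-0100 and Het-M-0203, and the part of depth and RNA quality in these values was not tested.

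**Figure D4:**
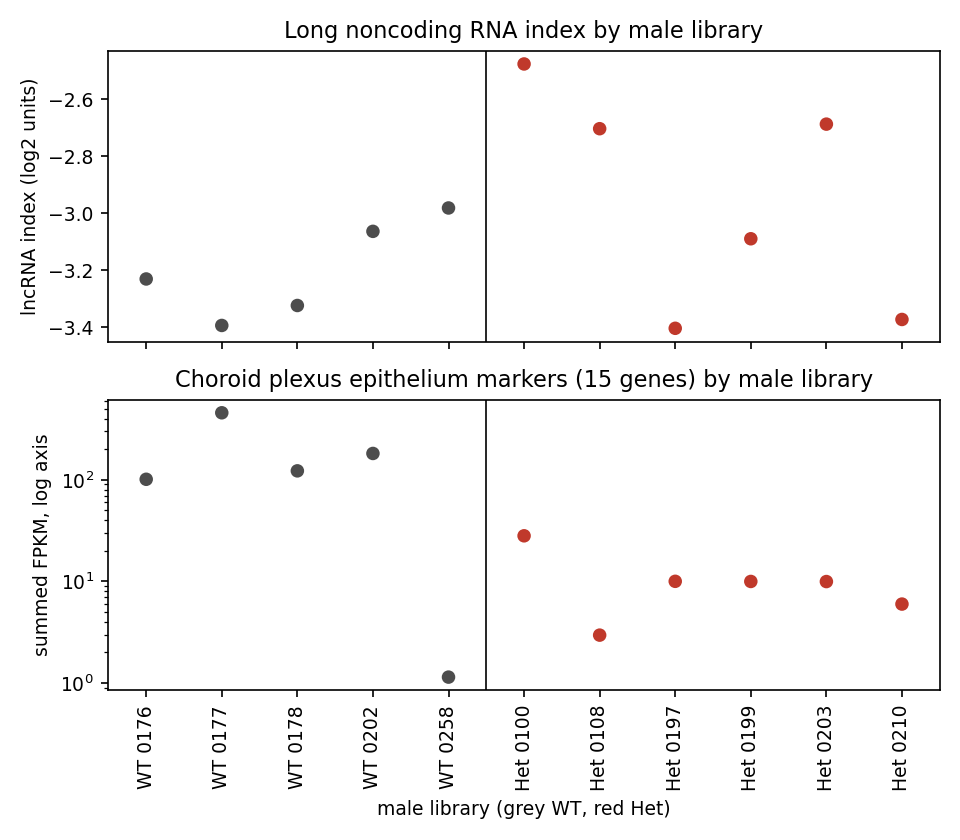
Top, lncRNA index of each male library, in log2 units. Bottom, summed FPKM of 15 choroid plexus epithelium markers on a log axis. Het-M-0100, Het-M-0108 and Het-M-0203 have the highest lncRNA index, and 4 of the 5 WT libraries have more choroid plexus markers than any Het library, while WT-M-0258 has the least.

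Markers of other cells were also looked at. The CD11b+ CD45med gate selects myeloid cells and would remove oligodendrocytes, astrocytes, neurons, vascular cells and choroid plexus epithelium. At an unadjusted p below 0.05, 6.68% of all genes were lower and 7.47% higher. Of 11 border macrophage markers all 11 had a log2 fold change below 0, 6 of them at that p (median -0.99). Their sums, 114 to 232 FPKM in Het and 147 to 186 in WT, were mostly *Stab1*, which was between 96.5 and 209 FPKM in Het and between 121.6 and 165 in WT (log2 fold change -0.06). *Ngp*, a granule protein of developing neutrophils, was at 26.1, 11, 8.10, 24.6 and 9.20 FPKM in WT and between 0 and 4.34 in Het, without overlap (log2 fold change -3.49, adjusted p = 0.225 by limma). Of 10 tested neutrophil markers, 5 were lower and 0 higher at an unadjusted p below 0.05, with a median log2 fold change of -2.67. The 12 markers summed to 197.5 to 439 FPKM in Het and to 246 to 528 in WT, of which *Csf3r* gave between 197.3 and 263 in Het and between 172 and 241 in WT (log2 fold change 0.08). Of 6 oligodendrocyte markers 4 were higher and 1 lower at an unadjusted p below 0.05, and of 6 astrocyte markers 3 were higher. Erythroid markers summed to 122.2 to 143 FPKM in Het-M-0100, Het-M-0108 and Het-M-0210 and to 0.392, 5.07 and 14.2 in the other 3 Het libraries, and the groups overlapped, with 61.9 in WT-M-0202, 36.8 in WT-M-0258 and at most 0.253 in the other 3 WT libraries. Monocyte markers summed to 4.21 to 12.2 FPKM in Het and to 6.30 to 19.0 in WT, and neuron markers to 5.87 to 21.9 and 2.85 to 6.83. B cell markers summed to 302 to 356 FPKM in Het and to 288 to 347 in WT, endothelial markers to 7.36 to 11.7 and 9.96 to 15.5, and mural markers to at most 1.12 in any male library. The part of these cells in the results was not tested.

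Female mice labelled Het and WT share no library with the males. All 5 female Het libraries carried late mouse numbers, and their lncRNA index was between -3.42 and -3.02. Among female WT, the library labelled WT-F-0122 carried an early number. Sex is thus in part confounded with number range and lncRNA index when the Het differences are compared. The library labelled Het-F-0206 went against its label, with *Bin1* at 42.7 FPKM, below the mean of male Homo mice, and *Cx3cr1* at 13.9 FPKM, where the median of female Het was 1071. Between 5 female Het and 4 female WT libraries 22 genes were DEGs (0.13% of the genes tested), and 13 of them were among the male DEGs, 50.0% of the male and 59.1% of the female list. All 13 were raised: *Sp100*, *Pdcd1*, *Rxrg*, *Ly9*, *H2-Q7*, *Lox*, *Gm4951*, *Chst1*, *Cst7*, *Tmem154*, *Gpr153*, *Hcar2* and *Chst2*. Without Het-F-0206, an alternative chosen after the data were seen, 9 genes were DEGs in females, and 6 of the 13 remained, namely *Sp100*, *Pdcd1*, *Rxrg*, *Chst1*, *Cst7* and *Chst2*. All 21 genes raised in males had a female log2 fold change above 0, with a median of 1.14 against 1.27 in males, and all 21 had so without Het-F-0206, with a median of 1.06. The 5 genes repressed in males also had the same sign in females, but 0 of them were DEGs there, 1 was lower at an unadjusted p below 0.05, and *Bin1* differed by -1.07 on the log2 scale there (adjusted p = 0.163 by limma), and by -0.69 without Het-F-0206 (adjusted p = 0.414).

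Whether the sexes differed was tested by the interaction term. It passed limma's adjusted p for 0 genes, and for 0 with array weights, although 766 genes had an unadjusted p below 0.05 (1005 with array weights). Of the 26 male DEGs, 4 raised and 3 repressed had an unadjusted interaction p below 0.05, against 766 of all 16897 genes tested. These DEGs were picked by the male difference, which is part of the interaction term. The count is therefore no independent support for a difference between the sexes. The same limit holds for single genes that were named by their male values. *Cacna1s* rose in males, whereas in females it was at 4.55 ± 1.69 (SD, n = 5) in Het and 3.36 ± 0.367 FPKM (SD, n = 4) in WT, a difference of log2 fold changes of 0.96 (95% interval 0.34 to 1.59, interaction adjusted p = 0.860 by limma). *Chst1* and *Chst2* had the opposite pattern, with female log2 fold changes of 1.68 and 1.77 and interaction terms of -0.64 and -0.80. For *Cst7* the interaction term was -0.46, with a 95% interval of -1.07 to 0.16.

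Of the 45 cytosolic chaperones, 0 were lower and 0 higher in female Het at an unadjusted p below 0.05, with a median log2 fold change of -0.06, where 1.33% of all genes were lower and 2.62% higher. The interaction term was lower in males at that p for 5 of the 45, against 1.99% of all genes, and for 6 without Het-F-0206, against 2.27%. *Hsp90ab1* was at 172 ± 48.0 (SD, n = 5) in female Het and 206.96 ± 40.5 FPKM (SD, n = 4) in female WT, and the interaction term was -0.63 (95% interval -1.22 to -0.04, adjusted p = 0.860 by limma). *Apoe* was at 509.9 ± 77.2 and 414 ± 79.7 FPKM in these groups, a log2 fold change of 0.30, with an interaction term of -0.97 (95% interval -1.54 to -0.40, adjusted p = 0.860). No interaction term of these genes passed the adjusted threshold, and the part of number range and lncRNA index in them was not tested.

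**Figure D5:**
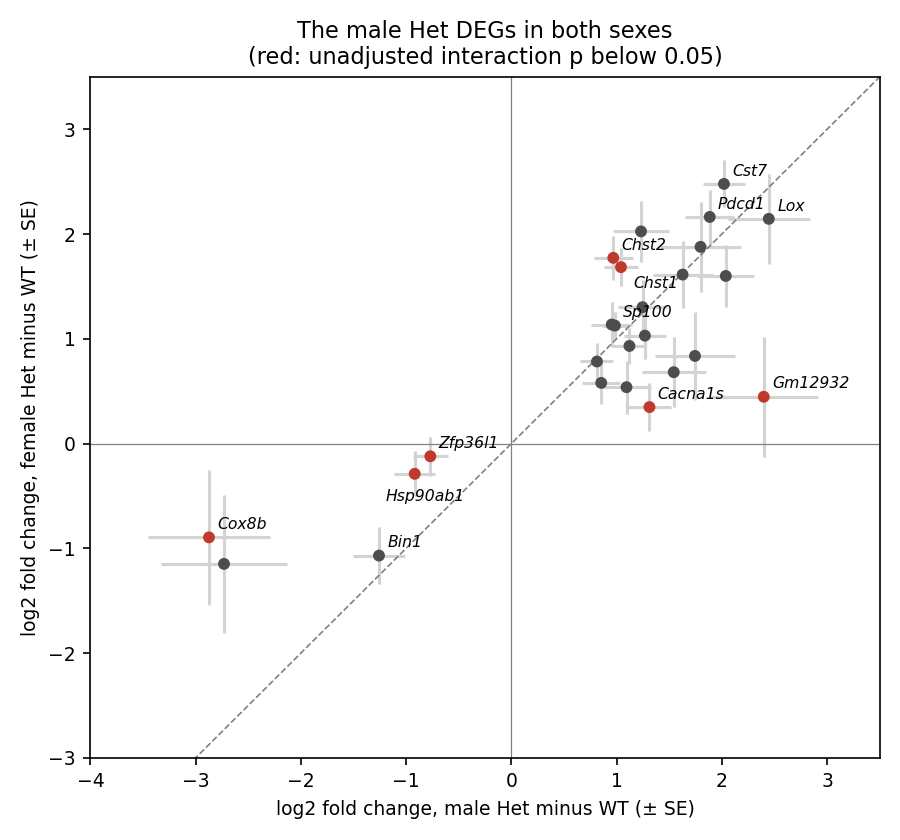
Log2 fold change of the 26 male DEGs in males (horizontal) and females (vertical), with standard errors, and the line of equal change. Points in red are the 7 genes with an unadjusted interaction p below 0.05, and all 26 have the same sign in both sexes.

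Male Homo mice lack both *Bin1* copies in Cre-expressing cells and were set against male Het mice to see what the second copy adds. Here 0 genes were DEGs by limma, with 651 at an unadjusted p below 0.05. Without the library labelled Het-M-0199, an alternative chosen after the data were seen, *Bin1* was the single DEG (log2 fold change -1.42, SE 0.23, adjusted p = 0.0129), whereas with all libraries its log2 difference was -1.21 (adjusted p = 0.624). *Cst7* was at 45.7 ± 7.43 FPKM (SD, n = 5) in Homo, a log2 difference from Het of 0.06 with a 95% interval of -0.35 to 0.48. For *Sp100* the interval was -0.36 to 0.11, for *Pdcd1* -0.39 to 0.55 and for *Chst1* -0.35 to 0.31. *Hsp90ab1* was at 107 ± 16.8 FPKM (SD, n = 5) in Homo, with an interval of -0.71 to 0.08 against Het. The libraries labelled Homo-M-0093, Homo-M-0097 and Homo-M-0109 carried early mouse numbers and had a lncRNA index between -2.80 and -2.48. In Het, Het-M-0100 and Het-M-0108 were early. The part of number range and lncRNA index in this comparison was not tested.

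By position, 6 of the 1147 genes tested on chromosome 1 were DEGs (0.523%), against 0.154% of all genes tested. They were *Sp100*, *Pdcd1*, *Cacna1s*, *Gm37168*, *Ly9* and *Rxrg*. Chromosome 18, which carries *Bin1*, held 3 of 381 (0.787%), *Bin1*, *Lox* and *Gm4951*. Both chromosomes are named because they had the highest shares, and chromosome 17 came next with 0.249%. No test of position was made.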

How the data were processed

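The authors sequenced sorted microglia of 3 month-old mice from SMARTer and Nextera XT libraries, used OSA4 on mm10 and RSEM with Ensembl genes, and deposited FPKM on a linear scale for 47643 genes. The filed protocol speaks of cultured cells instead, and the paper's account was taken. Another 6 columns of values match no listed sample and were not used here. FPKM hold no read totals, so absolute depth is unknown and no counting error is given. Relative depth was read from the steps of low values. The study's DESeq2 fit on counts was not repeated.

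FPKM were scaled by the median of ratios, 0.1 was added before log2, and 16897 genes that averaged 0.1 FPKM or more over 30 libraries were fitted by limma 3.58.1 (R 4.3.3) with an intensity trend, in 6 groups. The test was tried on simulated data. Contrasts were Het against WT in males, the interaction with sex, and Homo against Het in males. For 83 single genes, FPKM were compared by a two-sided exact permutation test (scipy 1.17.1). Most of these were picked by their limma p, so the permutation p is no independent evidence for them. Positions and biotypes are from GENCODE M21 for 16821 tested genes.

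The members and gene lists were chosen with earlier results of these data known. Genes named are *Bin1*, *Cx3cr1*, the 15 the study named, all DEGs, up to 4 members of each list with the smallest p, and the 10 largest changes without overlap among genes averaging 1 FPKM or more. Further list or marker genes are named with their ranges after their values were seen. Alternatives covered the pseudocount, the filter, the scaling, array weights, the male groups alone, the mouse number range (early, below 150) as a covariate, late numbers alone, no fold threshold, and each library left out. Covariates for the lncRNA index and fits without Het-F-0206 of the male and the female contrast, and Homo against Het without Het-M-0199, were added after the data were seen.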

Additional observations from a re-analysis of the deposited data

Results flagged for a closer look

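Among 62 sets of values (32 genes in the Het or the WT group), 5 held a library far from the others of its group, where chance marks about 1 set in 20. *Rxrg* was at 1.55 FPKM in the library labelled WT-M-0177, above the other 4 WT libraries. *Gm4951* was at 3.28 FPKM and *Lyz2* at 525 FPKM in the library labelled WT-M-0202, both above the other WT libraries and inside the Het range. *H2-Q7* was at 15.3 FPKM in the library labelled Het-M-0108 and at 6.46 FPKM in the library labelled WT-M-0258, each the highest of its group.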

How the results depend on the processing

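The 26 DEGs became 14 with array weights, 4 in a fit of both male groups alone, 12 among late numbered mice and 16 when number range entered as a covariate. Raised DEGs, 21, became 13, 4 and 12 under the first 3 of these. Repressed DEGs, 5, became 1, 0, 0 and 1 in the same 4 settings, 3 with a pseudocount of 1, 3 with a mean FPKM of at least 1, and 2 with the lncRNA index as a covariate. Leaving out each library in turn gave 12 to 57 DEGs, 12 to 38 raised and 0 to 28 repressed. There were 15, 17, 52 and 15 DEGs without Het-M-0100, Het-M-0108, Het-M-0197 and Het-M-0203, and 17, 16, 12, 53 and 57 without WT-M-0176, WT-M-0177, WT-M-0178, WT-M-0202 and WT-M-0258. The repressed DEGs were 3 without Het-M-0199. Female DEGs, 22, became 9 without Het-F-0206. The count for the interaction with sex, 0, became 1 without Het-F-0206 (*Smt3h2-ps4*), and that for Homo against Het became 1 without Het-M-0199. Over 83 named genes, 0 log2 fold changes changed sign in any setting, a call was lost in 190 pairs of gene and setting and gained in 15. The causes were not tested. No paired analysis was possible because the groups share no mouse number.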

Other observations

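Among genes averaging 1 FPKM or more with an unadjusted p below 0.05 and no overlap between the male groups, the largest changes beyond those described were in *Mgl2*, *Apoo-ps* and *Nap1l5*. *Mgl2*, a C-type lectin of macrophages and dendritic cells, was at 1.66, 2.81, 2.96, 1.69 and 1.22 FPKM in WT and between 0.174 and 1.03 in Het. Its log2 fold change was -1.91 (adjusted p = 0.143 by limma). *Nap1l5*, an imprinted gene of the nucleosome assembly family, was between 0.967 and 4.48 FPKM in Het and between 0.354 and 0.884 in WT (log2 fold change 1.43, adjusted p = 0.167). *Apoo-ps*, a pseudogene that may share reads with its parent gene, was between 2.66 and 9.47 FPKM in Het and at most 2.09 in WT.

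*Gm26917*, a noncoding RNA, had the smallest interaction p of the named genes. In males it was at 29.1 ± 11.6 FPKM in Het (SD, n = 6) and 51.3 ± 19.0 in WT (SD, n = 5). In females it was at 55.9 ± 36.9 FPKM in Het (SD, n = 5) and 21.9 ± 6.35 in WT (SD, n = 4). The interaction term was -2.08 (standard error 0.55, adjusted p = 0.860 by limma).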
